A study of Homo sapiens with 12 samples.

Results

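The genes of the γ-secretase complex and of the RBPJ-MAML transcription complex were described across 4 groups of MB157 cells. There are 9 of them among 29744 gene entries, and they were picked by name for the role of their proteins: PSEN2, NCSTN, APH1A, APH1B and PSENEN for γ-secretase, and RBPJ, MAML1, MAML2 and MAML3 for the nuclear complex. MB157 is an established triple-negative breast cancer (TNBC) cell line with an active, rearranged NOTCH1 gene, and MB157R is a line that grew out of it over 25 weeks in 1 µM of a γ-secretase inhibitor (GSI, LY3039478). RNA was sequenced from MB157R with an inducible NOTCH1 intracellular domain (MB157R iN1-ICD), MB157R with an empty vector (MB157R iEV), MB157 with inducible SOX2 (MB157 iSOX2) and MB157 with the empty vector (MB157 iEV), with 3 libraries each. All 4 groups carried a doxycycline-inducible lentiviral vector and received doxycycline for 72 h, at 1 µg/ml by the labels. The methods name the induced NOTCH1 form both N1-ICD and DeltaE-NOTCH1, and a DeltaE form still has to be cut by γ-secretase. Neither source says whether MB157R cells were kept in GSI until harvest. MB157R is 1 line selected once, so its differences from MB157 hold for this line.

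As background, γ-secretase is a membrane protease that cuts Notch receptors and many other single-pass proteins within the membrane. Presenilin carries the active site, nicastrin (NCSTN) screens substrates, an APH1 protein holds the complex together during assembly, and PEN-2 (PSENEN) completes it and lets presenilin mature. The freed N1-ICD enters the nucleus and binds RBPJ, a DNA-binding protein that otherwise recruits corepressors. A Mastermind-like protein (MAML1, MAML2 or MAML3) then docks on the RBPJ-N1-ICD surface and brings in histone acetyltransferases. Of the presenilins, PSEN2, the one found mainly in late endosomes and lysosomes, is described here.

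Promoter sequence from RefSeq (GRCh38.p14) was matched for 8 of the 9 genes, all but APH1B, in 12 windows of 250 bases before an annotated start, of which RBPJ has 5. Both strands were searched for TGGGAA, the core that RBPJ binds, for the longer GTGGGAA that contains it, and for ACAATG or ACAAAG, cores bound by SOX proteins. Of 35116 such windows in the table, 20.8% held TGGGAA, 5.43% held GTGGGAA and 21.2% held a SOX core. PSENEN, the gene that fell most in MB157R, had 1 TGGGAA. A start inside RBPJ, 1 of its 5 searched, had 2 copies of GTGGGAA, which are shown with 30 bases each. The shares above are per window, so a gene with 5 windows has more room for a match. MAML2, the gene that rose most, had none of these letters in its window. SOX cores were found at APH1A and at 2 other starts of RBPJ. The stretches below are written 5′ to 3′ on the strand of the gene, with the RBPJ core (at RBPJ, the longer form) in capitals, and were cut at annotated exons for PSENEN. The RBPJ stretches were not cut, and 14 bases of the first and all 30 of the second lie in annotated exons. A match is a run of letters and not a measured binding site, and the counts do not tell the starts of a gene apart.
PSENEN, chr19:35745446-35745599, plus strand: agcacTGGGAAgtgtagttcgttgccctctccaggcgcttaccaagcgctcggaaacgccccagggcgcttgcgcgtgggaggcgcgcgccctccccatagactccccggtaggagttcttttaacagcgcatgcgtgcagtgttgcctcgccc
RBPJ, chr4:26319620-26319649, plus strand: gtttaggaaatTTCCCACggccgtgttgtg
RBPJ, chr4:26319662-26319691, plus strand: agtggaaggcgGTGGGAAggaggtgtagcg
MAML2, chr11:96343196-96343445, minus strand: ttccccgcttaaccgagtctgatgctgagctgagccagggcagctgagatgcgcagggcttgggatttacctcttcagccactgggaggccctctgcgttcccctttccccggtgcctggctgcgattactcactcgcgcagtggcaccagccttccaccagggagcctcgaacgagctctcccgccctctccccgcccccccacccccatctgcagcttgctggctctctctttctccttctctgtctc

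Libraries held 32773820 to 49055208 estimated counts, and levels are given as CPM, counts scaled to library size with TMM factors over the 12 libraries. NOTCH1 checked the labels: it was at 2648, 1793 and 2631 CPM in MB157R iN1-ICD, against 86.0 to 102.1 CPM in MB157R iEV. SOX2 was at 288 to 333 CPM in MB157 iSOX2, against 6.54 to 7.62 CPM in MB157 iEV, and at 53.3 to 65.9 CPM in MB157R iEV. Epithelial markers (KRT8, KRT18, KRT19, EPCAM, CDH1) were detected in every library, summing to 5318 to 6094 CPM in MB157R iN1-ICD, 3628 to 3776 CPM in MB157R iEV, 1622 to 1666 CPM in MB157 iSOX2 and 1924 to 1951 CPM in MB157 iEV. The keratins carried the higher sum in MB157R, since EPCAM was at 373.6 to 385.2 CPM in MB157R iEV, against 505.9 to 536.0 CPM in MB157 iEV, and CDH1 at 299.7 to 316.3 CPM in MB157R iEV, against 563.4 to 574.5 CPM in MB157 iEV. Of the leukocyte markers reported here, CD3E was at 0 counts throughout and PTPRC at or under 0.225 CPM, while CD68 was at 11.02 to 12.36 CPM in MB157R iN1-ICD, 3.73 to 4.98 CPM in MB157R iEV, 0.824 to 1.21 CPM in MB157 iSOX2 and 2.09 to 2.50 CPM in MB157 iEV. Of the receptors that define triple-negative tumors by their lack, ESR1 stayed at or under 2.08 CPM and PGR at or under 5.56 CPM, while ERBB2 was at 118.5 to 169.0 CPM. The 6 fibroblast markers summed to 157.4 to 169.1 CPM in MB157R iN1-ICD, 73.0 to 87.3 CPM in MB157R iEV, 26.2 to 27.8 CPM in MB157 iSOX2 and 16.3 to 20.8 CPM in MB157 iEV, mostly COL1A1. COL1A2 was at 12.5 to 15.6 CPM in MB157R iEV, against 0.0242 to 0.0706 CPM in MB157 iEV. PDGFRB was at 1.95 to 2.51 CPM in MB157R iEV, against 0.0941 to 0.152 CPM in MB157 iEV. COL3A1 and LUM stayed at or under 0.188 CPM in every library, and DCN was at 0 in both MB157R groups. Of the endothelial markers, PECAM1 reached 90.6 to 99.3 CPM in MB157 iSOX2, where CDH5 was at most 0.0450 CPM, and VWF was at 4.33 to 6.41 CPM in MB157R iN1-ICD, 0.783 to 0.912 CPM in MB157R iEV, 7.59 to 7.78 CPM in MB157 iSOX2 and 5.94 to 7.24 CPM in MB157 iEV. The part of such marker changes in the results was not tested. In RNA from a whole culture, fewer cells with a transcript and less transcript per cell cannot be told apart.

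Among the γ-secretase genes, APH1A had the highest level per kilobase of transcript in all 4 groups and APH1B the lowest. Per kb, APH1A was at 94.9 ± 0.365 CPM in MB157R iEV and 195.6 ± 2.54 CPM in MB157 iEV (SD, n = 3 each). PSENEN was at 19.6 ± 0.797 CPM per kb in MB157R iEV and 64.4 ± 0.586 CPM per kb in MB157 iEV, and NCSTN at 27.6 ± 1.19 CPM per kb in MB157R iEV and 41.7 ± 1.91 CPM per kb in MB157 iEV. Per kb the order of these 2 subunits therefore turned round between the lines, NCSTN being above PSENEN in MB157R and below it in MB157. In CPM not divided by length NCSTN was above PSENEN in all 4 groups, at 117.8 CPM against 72.3 CPM in MB157 iEV. The turn thus rests on the lengths used. The ratio of PSENEN to NCSTN per kb, taken within a library, lay between 0.581 and 0.694 in MB157R iN1-ICD, 0.657 and 0.774 in MB157R iEV, 1.163 and 1.197 in MB157 iSOX2, and 1.47 and 1.61 in MB157 iEV. PSEN2 differed little in mean level per kb, at 11.3 CPM in MB157R iN1-ICD, 11.5 CPM in MB157R iEV, 12.2 CPM in MB157 iSOX2 and 11.2 CPM in MB157 iEV. In the nuclear complex RBPJ was at 18.3 ± 0.697 CPM per kb in MB157R iEV and 25.4 ± 0.486 CPM per kb in MB157 iEV. Lengths are those of the main annotated transcript, which may not be the isoform these cells use.

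The comparison of resistant with parental cells asked which genes differ after long selection in GSI. In MB157R iEV against MB157 iEV the γ-secretase genes PSENEN, APH1A and NCSTN fell, as did RBPJ and MAML1 of the nuclear complex, while MAML2 rose 3.43-fold. PSEN2 and APH1B were not called. Thus 6 of the 8 genes tested were called at an adjusted p under 0.05 (edgeR's quasi-likelihood test, Benjamini-Hochberg over 11435 genes), where 90.2% of all genes were called. Of these, 1 was higher, as were 45% of all genes, and 5 were lower, as were 45.3%. Called and at least 2-fold changed were 3, against 38.9% of all genes. The median absolute log2 fold change of the 8 was 0.563, and that of all genes 0.745. Groups did not overlap for 6 of the 8 genes and for 90.9% of all genes. A call is therefore the rule in this comparison, and the sizes and directions are what is described.

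PSENEN (chromosome 19, 35745600 to 35747519 on the plus strand, 4 exons; GENCODE v44, GRCh38) was at 23.1, 21.8 and 21.3 CPM in MB157R iEV, against 72.2, 71.8 and 73.1 CPM in MB157 iEV. Every MB157R library was far below every MB157 library. It was 3.32-fold lower (log2 fold change -1.73, SE 0.0457, adjusted p = 5.49e-13), and 21.5% of all genes changed by as much. APH1A (chromosome 1, 150265399 to 150269580, minus strand, 7 exons), the main APH1 scaffold here, was at 164.1, 163.5 and 164.8 CPM in MB157R iEV, against 341.0, 340.8 and 333.3 CPM in MB157 iEV. It was 2.09-fold lower (log2 fold change -1.06, SE 0.0317, adjusted p = 1.86e-12), with replicates that lay close together in both lines. NCSTN (chromosome 1, 160343294 to 160358952, plus strand, 17 exons) was at 74.8, 77.1 and 81.4 CPM in MB157R iEV, against 122.9, 112.2 and 118.3 CPM in MB157 iEV. The groups did not overlap, and NCSTN was 1.53-fold lower (adjusted p = 2.71e-08).

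PSEN2 (chromosome 1, 226870184 to 226927726, plus strand, 13 exons) was at 25.8, 25.8 and 26.0 CPM in MB157R iEV, against 26.7, 24.6 and 24.1 CPM in MB157 iEV. Its groups overlapped, and its log2 fold change of 0.03 had a 95% interval from -0.09 to 0.14 (adjusted p = 0.672). APH1B (chromosome 15, 63276018 to 63309126, plus strand, 6 exons), the lesser APH1 gene, was at 6.43, 5.62 and 6.06 CPM in MB157R iEV, against 5.93, 7.01 and 7.85 CPM in MB157 iEV. The difference of -0.22 on the log2 scale (interval -0.48 to 0.04, adjusted p = 0.0921) was within the spread of these libraries. In edgeR refits it was -0.31 without MB157 iEV replicate 1 (adjusted p = 0.0254) and -0.12 without MB157 iEV replicate 3 (adjusted p = 0.398). No other refit called APH1B in this comparison.

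MAML2 (chromosome 11, 95976598 to 96343195, minus strand, 5 exons), a coactivator with the same docking helix as its relatives, was at 132.2, 119.3 and 134.1 CPM in MB157R iEV, against 38.9, 34.0 and 38.4 CPM in MB157 iEV. The lowest MB157R library was over 3 times the highest MB157 library. Its log2 fold change was 1.78 (SE 0.0607, adjusted p = 7.24e-12), and 20.8% of all genes changed by as much. MAML1 (chromosome 5, 179732822 to 179777283, plus strand, 5 exons) moved the other way, at 88.9, 87.7 and 84.7 CPM in MB157R iEV, against 126.3, 117.1 and 124.4 CPM in MB157 iEV. It was 1.43-fold lower (log2 fold change -0.51, adjusted p = 3.73e-08). RBPJ (chromosome 4, 26163455 to 26435131, plus strand, 11 exons) was at 99.2, 94.8 and 102.2 CPM in MB157R iEV, against 134.4, 139.6 and 137.5 CPM in MB157 iEV, and was 1.41-fold lower (log2 fold change -0.49, adjusted p = 4.79e-08). RBPJ has processed pseudogene copies in the genome, so its counts may be shared with them to an unknown extent.

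MAML3 (chromosome 4, 139716753 to 140154184, minus strand, 5 exons) was too low for the authors' filter in every comparison. It was tested only when all genes with a mean count of at least 5 were taken, or with no filter. It was at 6.03, 5.62 and 7.08 CPM in MB157R iEV, against 4.02, 3.83 and 3.51 CPM in MB157 iEV, with no overlap. With the filter at a mean count of 5 it was 1.71-fold higher (log2 fold change 0.78, SE 0.127, adjusted p = 9.78e-05), where 86.7% of genes were called. With no filter its log2 fold change was 0.79 (adjusted p = 1.3e-05), where 73.1% of genes were called. With the filter at 5, MAML3 gave log2 fold changes of -0.09 in MB157 iSOX2 against MB157 iEV (adjusted p = 0.655) and -0.20 in MB157R iN1-ICD against MB157R iEV (adjusted p = 0.238). These were edgeR tests with 56.3% and 52.8% of genes called. With no filter neither was called (adjusted p = 0.675 and 0.239).

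**Figure D1:**
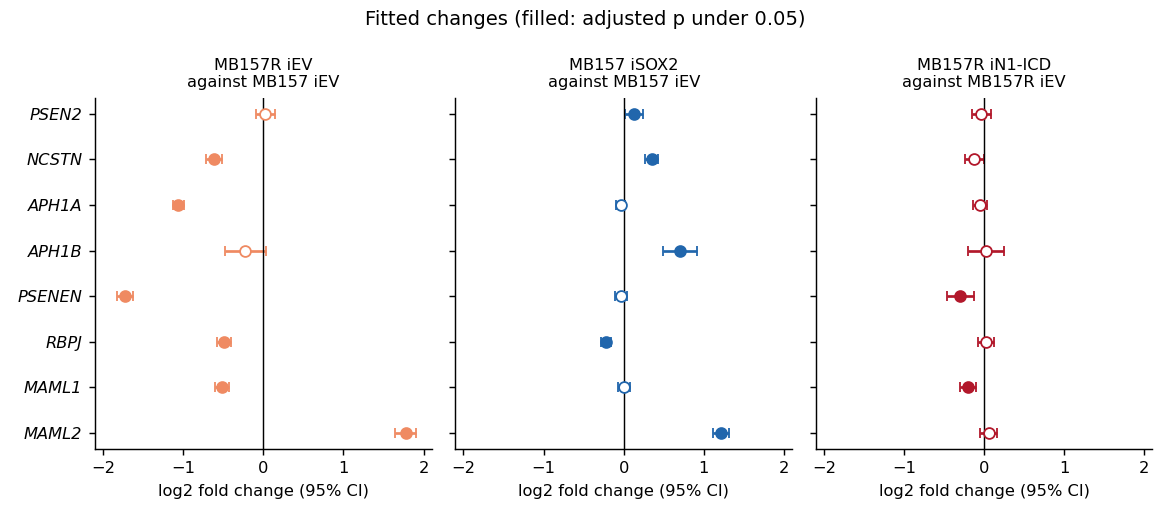
Fitted log2 fold change (x axis) with its 95% interval for the 8 genes tested in each of the 3 comparisons; filled points have an adjusted p under 0.05. MAML2 is far right of 0 with resistance (1.78) and with SOX2 (1.21), and lies at 0.05 with N1-ICD.

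Induction of SOX2 in parental cells asked which genes respond to SOX2 in cells that were not selected in GSI. MB157 iSOX2 against MB157 iEV had MAML2, APH1B, NCSTN and PSEN2 higher and RBPJ lower, and APH1A, PSENEN and MAML1 not called. These 5 of 8 called genes stand beside 66.4% of 10904 genes called (32.5% higher and 33.9% lower), and the 1 gene changed at least 2-fold beside 6.05%. Groups did not overlap for 6 of the 8, against 70.1% of all genes. The median absolute log2 fold change was 0.176 for the 8 genes and 0.197 for all genes.

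MAML2 was at 84.2, 87.8 and 85.2 CPM in MB157 iSOX2, against 38.9, 34.0 and 38.4 CPM in MB157 iEV, a 2.31-fold rise (log2 fold change 1.21, SE 0.0472, adjusted p = 1.47e-12). All iSOX2 libraries stood above all iEV libraries, and 4.48% of all genes changed by as much. APH1B was at 12.4, 10.9 and 10.8 CPM in MB157 iSOX2, against 5.93, 7.01 and 7.85 CPM in MB157 iEV, and rose 1.63-fold (log2 fold change 0.70, SE 0.101, adjusted p = 1.33e-05). These low levels rest on 1484 counts over the 3 iSOX2 libraries and 817 over the 3 iEV libraries. NCSTN was at 150.4, 153.4 and 146.5 CPM in MB157 iSOX2, against 122.9, 112.2 and 118.3 CPM in MB157 iEV, and rose 1.27-fold (adjusted p = 3.11e-07), the opposite direction to its difference in MB157R.

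RBPJ, the DNA-binding partner, was at 119.0, 116.8 and 118.0 CPM in MB157 iSOX2, against 134.4, 139.6 and 137.5 CPM in MB157 iEV. It fell 1.17-fold without overlap (log2 fold change -0.22, adjusted p = 6.9e-06). For the genes not called the intervals were narrow: -0.10 to 0.02 for APH1A, -0.11 to 0.04 for PSENEN and -0.08 to 0.07 for MAML1 on the log2 scale. PSENEN, so low in MB157R, was thus at 71.4, 71.0 and 69.8 CPM in MB157 iSOX2, against 72.2, 71.8 and 73.1 CPM in MB157 iEV. PSEN2 passed the threshold by little, at 26.7, 29.1 and 26.8 CPM in MB157 iSOX2, against 26.7, 24.6 and 24.1 CPM in MB157 iEV (log2 fold change 0.13, adjusted p = 0.0459). Its groups overlapped, and the call was lost with DESeq2 (adjusted p = 0.0674), with either wider gene filter (0.0714 and 0.0685), in 1 fit over 12 libraries (0.0554), and without MB157 iEV replicate 2 (0.128), MB157 iEV replicate 3 (0.16) or MB157 iSOX2 replicate 2 (0.202).

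Induction of N1-ICD in resistant cells asked which genes respond when Notch signaling is switched on again. MB157R iN1-ICD against MB157R iEV had PSENEN and MAML1 lower and 6 genes not called, so that 2 of 8 were called beside 59.1% of 11210 genes, none higher (29.8% of all genes) and 2 lower (29.3%). No member was called and at least 2-fold changed, against 5.17% of all genes, and groups did not overlap for 2 of the 8, against 65% of all genes. The median absolute log2 fold change of the 8 was 0.0532, against 0.197 for all genes. RBPJ and MAML2 were not called in libraries where NRARP, a Notch target that feeds back on N1-ICD, was at 83.2 CPM in MB157R iN1-ICD and 12.9 CPM in MB157R iEV (log2 fold change 2.69, adjusted p = 4.28e-09).

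PSENEN was at 20.1, 16.6 and 17.5 CPM in MB157R iN1-ICD, against 23.1, 21.8 and 21.3 CPM in MB157R iEV. It was 1.23-fold lower (log2 fold change -0.30, SE 0.0778, adjusted p = 0.00722), so its level moved further from that of MB157 iEV. MAML1 was at 78.8, 73.7 and 76.3 CPM in MB157R iN1-ICD, against 88.9, 87.7 and 84.7 CPM in MB157R iEV, with no overlap (log2 fold change -0.20, SE 0.0432, adjusted p = 0.00219). MAML2 was at 134.4, 138.7 and 130.3 CPM in MB157R iN1-ICD, against 132.2, 119.3 and 134.1 CPM in MB157R iEV, with overlap and an interval of -0.05 to 0.16 on the log2 scale. RBPJ had an interval of -0.08 to 0.12, PSEN2 of -0.15 to 0.08, APH1A of -0.13 to 0.03 and APH1B of -0.20 to 0.25. NCSTN, at 72.7, 66.9 and 75.6 CPM in MB157R iN1-ICD, against 74.8, 77.1 and 81.4 CPM in MB157R iEV, was near the threshold (log2 fold change -0.13, adjusted p = 0.0645, and 0.0325 without MB157R iN1-ICD replicate 3).

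Set side by side, the log2 fold change of MAML2 was 1.78 in MB157R, 1.21 with SOX2 and 0.05 with N1-ICD, and that of PSENEN -1.73, -0.04 and -0.30. MB157 iEV libraries are the controls of the first 2 comparisons and MB157R iEV libraries enter the first and the third, so these values are not independent of each other. In the order of levels over the 4 groups, MAML2 was highest in MB157R iN1-ICD and MB157R iEV, which overlapped, then MB157 iSOX2, then MB157 iEV, with no overlap between the last steps. NCSTN and APH1B were highest in MB157 iSOX2, and APH1A, PSENEN and RBPJ in MB157 iEV.

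The makeup of the MAML family differed with these changes. As a share of MAML reads per kb, MAML2 made up 56.3%, 58.9% and 56.7% in MB157R iN1-ICD, 53.2%, 51.0% and 54.4% in MB157R iEV, 35.6%, 35.4% and 35.6% in MB157 iSOX2, and 19.5%, 18.6% and 19.6% in MB157 iEV. No groups overlapped, and MAML1 was the larger share in both MB157 groups but not in the MB157R groups. MAML1 averaged 40.3 ± 1.30% in MB157R iN1-ICD, 44.5 ± 1.95% in MB157R iEV, 63.0 ± 0.398% in MB157 iSOX2 and 78.7 ± 0.442% in MB157 iEV (SD, n = 3 each). MAML3 averaged between 1.55% and 2.67%. The level of MAML2 per kb relative to RBPJ was 1.01 ± 0.0170 in MB157R iN1-ICD, 0.986 ± 0.0286 in MB157R iEV, 0.551 ± 0.0168 in MB157 iSOX2 and 0.205 ± 0.0182 in MB157 iEV. Such ratios within a library do not depend on the scaling, and are given as a description with no test.

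APH1B stayed a small share of the APH1 pair everywhere, averaging 1.60 ± 0.117% in MB157R iN1-ICD, 1.51 ± 0.0970% in MB157R iEV, 1.42 ± 0.111% in MB157 iSOX2 and 0.850 ± 0.126% in MB157 iEV. Every other library was above every MB157 iEV library. In counts not divided by length the shares were 3.75%, 3.55%, 3.34% and 2.01% in the 4 groups as just named, over 1.5 times as large. In MB157R iEV that share went with a lower APH1A level, and in MB157 iSOX2 with a higher APH1B level.

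The chromosomal surroundings of the genes were read from the same fits, using the tested genes within 1 Mb in RefSeq. Around PSENEN 42 of 43 such genes were lower in MB157R iEV than in MB157 iEV and 1 was higher, where 45.3% of all genes were lower. The median log2 fold change of the neighbours was -1.85, beside -1.73 for PSENEN, and 0.845% of 10061 genes with at least 5 tested neighbours had a median as low. U2AF1L4, which lies 233 bases from PSENEN, was at -1.43 and LIN37, 1057 bases away, at -1.81. Within 0.5 Mb 24 of 25 genes were lower, and within 2 Mb 66 of 68 (windows added after the data were seen). With SOX2, 11 of 45 neighbours were higher and 16 lower (median -0.06), where 32.5% and 33.9% of all genes were. With N1-ICD the run went the other way, 18 of 33 being higher and 3 lower (median 0.23), where 29.8% and 29.3% of all genes were, opposite in sign to PSENEN itself. Genes that are close together share their neighbours, so the windows of different genes are not independent.

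The 3 genes on chromosome 1 also lay among genes that were mostly lower in MB157R iEV: 19 of 25 around NCSTN (median -0.80), 23 of 33 around APH1A (median -0.66, beside -1.06 for APH1A) and 11 of 13 around PSEN2 (median -0.63), where PSEN2 itself was at 0.03 and not called. Around MAML1 12 of 15 were lower, with a median of -0.53 beside -0.51 for MAML1, and 21.0% of the 10061 genes had a median as low. COPA, a coat protein gene 133 bases from NCSTN, was at -0.97, and CANX, 1181 bases from MAML1, at -0.53. Around APH1B 9 of 12 neighbours were higher (median 0.66), where 45% of all genes were, while APH1B itself was at -0.22 and not called. Of the 10061 genes, 17.8% had a median as high. The nearest neighbour of APH1B, RAB8B, was at 2.56. Around MAML2 4 of 8 tested genes were higher and 4 lower within 1 Mb (median 0.29), and 4 of 5 were higher within 0.5 Mb (median 0.77), the nearest, CCDC82, being at 2.51. With SOX2, MAML2 stood outside its surroundings, its 8 neighbours lying between -1.34 and 0.24 against 1.21 for MAML2, and CCDC82 at 0.22. Around RBPJ 4 of 9 were higher and 3 lower in MB157R iEV.

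Genes that act with the 2 complexes were taken from 7 lists of 92 genes. The lists were written by hand with earlier results of these data known, so their counts and medians only describe the genes picked. In MB157R iEV against MB157 iEV 47 of the 88 tested were higher and 35 lower, so that 93.2% were called, beside 90.2% of all genes (45% higher and 45.3% lower). The lists with the largest typical change were the other γ-secretase substrates (14 of 18 higher, 4 lower, median log2 fold change 1.52, where all genes had a median of -0.00) and the genes of receptor processing and glycosylation (5 of 8 higher, 3 lower, median 1.37). SORL1, a sorting receptor cut by γ-secretase, averaged 119.6 CPM in MB157R iEV and had no count in MB157 iEV, which makes it at least 4670-fold higher if 3 counts in all are set as the floor of that group. NRG1, a growth factor precursor, was at least 1040-fold higher on the same floor. APLP1, a relative of the amyloid precursor that lies 121.06 kb from PSENEN, averaged 0.0862 CPM in MB157R iEV and 46.3 CPM in MB157 iEV (log2 fold change -8.97).

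The presenilin relatives, which are intramembrane proteases of the signal peptide peptidase family, had 1 of 4 higher and 3 lower in MB157R iEV. Beside this and the list counts that follow, 45% of all genes were higher and 45.3% lower. SPPL2A averaged 45.1 CPM in MB157R iEV and 16.8 CPM in MB157 iEV (log2 fold change 1.43), while SPPL3, which cleaves Golgi glycosyltransferases, averaged 51.3 CPM in MB157R iEV and 228.2 CPM in MB157 iEV (-2.15). Among modulators and traffic partners 4 of 10 were higher and 5 lower. GSAP, described as a γ-secretase activating protein, averaged 23.1 CPM in MB157R iEV and 5.74 CPM in MB157 iEV, a log2 fold change of 2.01. ERLIN2, an endoplasmic reticulum membrane protein, was at -1.32. Corepressors of RBPJ were split, 8 higher and 8 lower of 19, with FHL1, which has an RBPJ-binding isoform, at 51.9 CPM in MB157R iEV and 0.156 CPM in MB157 iEV, and SAP30, a SIN3 complex subunit, at -1.91. Coactivators were split as well, 5 higher and 5 lower of 11. KDM1A, a histone demethylase, averaged 708.1 CPM in MB157R iEV and 179.5 CPM in MB157 iEV (1.98). Of the genes of Notch endocytosis and turnover 10 of 18 were higher and 7 lower, led by the ubiquitin ligases NEDD4 (3.70) and NEDD4L (2.96), with NRARP at -2.75. All genes named here and in the next paragraph had an adjusted p at or under 0.0057 in the edgeR fits.

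In MB157 iSOX2 against MB157 iEV 39 of 85 listed genes were higher and 21 lower (70.6% called, beside 66.4%). Of all genes 32.5% were higher and 33.9% lower. KAT2B, an acetyltransferase recruited to N1-ICD complexes, averaged 116.2 CPM in MB157 iSOX2 and 7.75 CPM in MB157 iEV, a 14.98-fold rise, in a list of 11 coactivators with 5 higher, 3 lower and a median of 0.09. CDH2, the γ-secretase substrate N-cadherin, was at 4.30, GSAP at 1.23, SPPL3 at -0.55 and NRARP at -1.79. Corepressors were 4 higher and 8 lower of 18. In MB157R iN1-ICD against MB157R iEV 23 of 87 were higher and 36 lower (67.8% called, beside 59.1%), with other substrates 3 higher and 11 lower of 17. Of all genes 29.8% were higher and 29.3% lower in that comparison. LFNG, which extends sugars on Notch, was at -2.56, HDAC1 at -0.66, KDM1A at -0.54, GSAP at 0.30, DTX4, a deltex ubiquitin ligase, at 1.16, and IL1R1, a cytokine receptor also cut by γ-secretase, at 2.11. GSAP had a positive log2 fold change in each comparison, of 2.01, 1.23 and 0.30, the first and second sharing the MB157 iEV libraries.

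By Pearson correlation of log2(CPM + 1) over the 12 libraries, among 10588 genes averaging 10 CPM or more, the genes most like MAML2 were NPAS2, PPP2R5B and HSD17B11 (r of 0.9966, 0.9964 and 0.9949), and those most like PSENEN were EDC4, UBE2O and SLC35A4 (0.9988, 0.9978 and 0.9978). For APH1A they were GYG2, TUFM and TUBB6 (0.9995, 0.9993 and 0.9992), for NCSTN TPD52L2 (0.9975), for MAML1 CTBP1-AS2 (0.997) and for RBPJ PIK3C2B (0.9902). The low genes had less close partners, PRIM2 for APH1B (0.9779) and LMTK2 for MAML3 (0.9447), and PSEN2, which varied least, had MAF1 (0.8925). The libraries fall into 4 groups of 3, so such an r mostly compares 4 group means.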

How the data were processed

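The 12 libraries were stranded mRNA libraries of MB157 and MB157R cells, 3 per group. Per the labels and methods, the authors aligned to hg38 (STAR) and quantified with Salmon in the reverse-strand setting. The authors deposited estimated counts per gene, not normalized, for 29744 entries, of which 61 repeat a name and 88% of values are whole. The gene annotation is not given in the sources used here. The authors also deposited 3 filtered tables of log2 CPM values (edgeR 3.42.4 TMM, limma 3.56.2 voom), 1 per comparison, which were used here only for their genes (11435, 10904 and 11210). The authors removed genes of low TPM or count and pseudogenes from them.

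Counts were rounded and tested in each comparison of 6 libraries with edgeR 4.0.16 (R 4.3.3, quasi-likelihood, TMM factors, library sizes from all entries, no replicate block), with calls at an adjusted p (Benjamini-Hochberg) below 0.05. Each SE was worked back from that test, as the absolute log2 fold change over the square root of its F statistic. The 95% intervals were built from this SE. The study calls its replicates biological, and the sources used here do not say whether each library came from its own culture, so the p-values reflect only how far these libraries scatter. Replicates differed by more than counting noise. CPM levels used TMM factors over 12 libraries from 10007 genes. Per-kb values used MANE Select lengths of GENCODE v44; promoters and neighbours came from RefSeq GRCh38.p14, the same assembly as hg38. On simulated counts the test recovered most changed genes, and in 2 of 3 comparisons more of its calls than the nominal share were of unchanged genes. Far fewer genes were changed in those counts than were called in the real data, so that share does not carry over. Adjusted p values just under the threshold are still to be read with care. The alternatives were RLE factors, library totals, 2 wider gene filters, DESeq2 1.42.0, limma-voom 3.58.1, a replicate block, 1 fit over 12 libraries, glmTreat at a log2 fold change of 1, and leaving out each library.

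The members and lists were chosen with earlier results of these data known. From each list the named genes are a part of those called at 1 CPM or more with the 2 largest changes in each direction. For neighbours, the nearest tested genes were named.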

Additional observations from a re-analysis of the deposited data

How the results depend on the processing

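No called gene changed sign in any refit of its log2 fold change under the alternatives, 17 refits lost a call and 6 gained one. Against a log2 fold change of 1, 3 genes were called in MB157R iEV against MB157 iEV, 1 (MAML2) in MB157 iSOX2 against MB157 iEV and 0 in MB157R iN1-ICD against MB157R iEV, compared with 6, 5 and 2, and of the listed genes 30, 5 and 4, compared with 82, 60 and 59. Leaving out 1 library gave 6 to 7, 4 to 5 and 2 to 3 genes called, and 80 to 83, 58 to 61 and 52 to 59 listed genes (alternatives for the lists were chosen after seeing the data). NCSTN with N1-ICD was called with library totals (adjusted p = 0.0499), the wider filters (0.0452 and 0.0289) and 1 fit over 12 libraries (0.0206). Replicate numbers did not pair the libraries: deviations correlated between -0.225 and 0.125, and 1 of 3 MB157R iEV, MB157 iSOX2 and MB157R iN1-ICD libraries each correlated best with its own number. With a replicate block 6, 4 and 2 genes were called (PSEN2 with SOX2 at 0.0568), and 10247, 7019 and 6422 of all genes. Raw counts without division by length put MAML2 at 57.9% in MB157R iEV and 22.7% in MB157 iEV of MAML counts, with the same order of groups. No scaling moved the median of all genes by over 0.0792. Depth limits MAML3 and APH1B, whose groups hold 440 to 831 and 781 to 1484 counts.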
